A study of Mus musculus with 23 samples.

Results

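The 12 soma-side libraries of the series are described here, of 23 libraries in all. They were chosen by their titles, 6 control and 6 stretched. The cells were hippocampal, from newborn C57Bl/6 mice of postnatal day 1, and were plated on one side of a microfluidic chamber whose channels let axons grow to the other side. Both groups were loaded with MNPs (magnetic nanoparticles) at 5 µg/ml. Stretched cultures then stood in a magnet's gradient of 50 T/m between DIV1 and DIV6 (days in vitro), whereas control cultures had the particles and a null gradient. The cell type on the label of these samples is the whole culture, so RNA of glia and of dendrites and proximal axons is included with that of neuronal cell bodies. Nothing in the labels says that the libraries of a group came from separate cultures or animals, so p-values measure only the spread between these samples, which may be technical.

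Neurons extend axons under the pull of their own growth cones, and an outside pull on a neurite can also make it grow. Such growth uses tubulin, actin and neurofilament protein, new membrane built from fatty acids and sterols, and protein synthesis in both soma and axon. Cells sense force through ion channels that open under membrane tension, through integrin adhesions and through the YAP and TAZ cofactors.

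Each library held 20.5 to 30.7 M counts, with a mean of 24.3 ± 3.29 M (SD, n = 6) in controls and 25.8 ± 3.25 M (SD, n = 6) in stretched libraries. Of 15632 genes tested with edgeR's quasi-likelihood test, 3929 passed an adjusted p of 0.05 (25.1%). They were 1757 genes higher in stretched libraries (11.2%) and 2172 lower (13.9%), the background for every count with 12 libraries below. Most changes were small: 45 of the called genes were higher and 271 lower by at least 1 on the log2 scale.

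One control library lay with the stretched ones. Control library 4 scored 19.2 on the first principal component of 9533 genes (53.3% of variance). Stretched scores ran from 9.58 to 26.2, and those of controls 1, 2, 3, 5 and 6 from -31.2 to -21.7. In 85.3% of the called genes, and in 73.5% of all tested genes, control 4 was nearer the stretched mean than the mean of the other controls. Without it 6072 of 15857 genes passed (38.3%), 2889 higher (18.2%) and 3183 lower (20.1%). Of the 3929 genes, 3910 (99.5%) passed again in the same direction, which is 64.4% of the 6072. Whether this library is mislabelled, or a control culture that differed, was not tested. Counts over gene lists are therefore given with and without it, the latter to be read against the 18.2% and 20.1%. The 115 named genes called with 12 libraries all passed without it too.

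**Figure D1:**
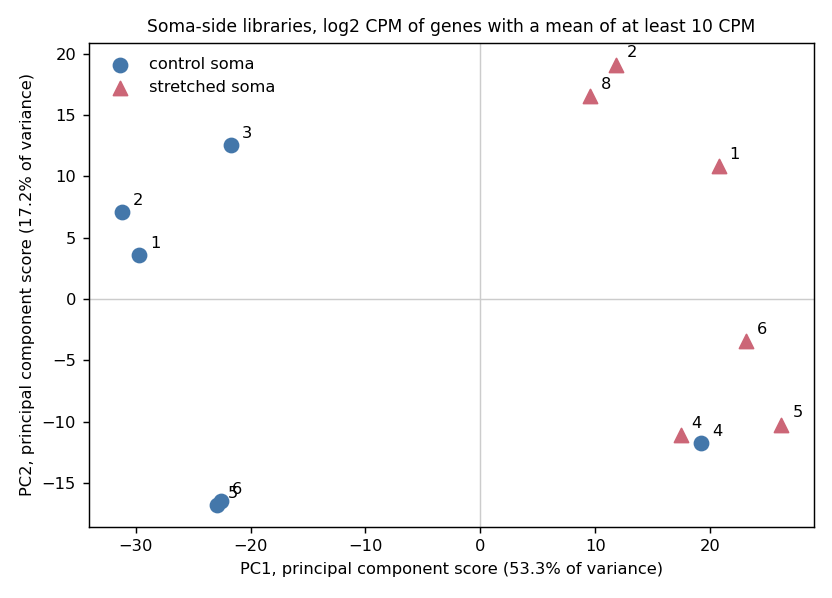
Scores of the 12 soma-side libraries on the first and second principal components of log2 CPM (n = 6 per group, numbers are replicate numbers). On the first component control 4, at 19.2, falls inside the range of stretched scores (9.58 to 26.2), far from controls 1, 2, 3, 5 and 6 (-31.2 to -21.7).

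The second component (17.2% of variance) was above 0 in 6 libraries and below 0 in the other 6, and the level of Eif2s3y, a Y-linked translation factor gene, parted the same libraries. The labels name no such split. Eif2s3y stood at 24.7 CPM or more in controls 1, 2 and 3 and stretched 1, 2 and 8, and at 13.2 CPM or less in the other 6 libraries. Among the first 6 libraries alone, 4637 genes passed. Among the other 6, which include control 4, no gene passed in edgeR, with 2739 at an unadjusted p under 0.05. Without control 4 these 5 libraries gave 4462 called genes. Within each group Ddx3y, Kdm5d and Uty, also Y-linked, parted the libraries in the same way except control 4. For Ddx3y control 4 was at 28.0 CPM, inside the 24.5 to 29.9 CPM of controls 1, 2 and 3. Stretched 4, 5 and 6, at 26.3 to 28.4 CPM, lay above controls 1 and 2 for this gene. Control 4 also lay inside the range of stretched 4, 5 and 6 for Ddx3y and Uty, but above it for Kdm5d.

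The changes followed transcript length. Across 15619 genes Spearman's rho between log2 fold change and length was 0.457 (0.466 without control 4, and 0.472 and 0.341 in the subsets of 6 and 5 libraries above). Genes are not independent replicates, and this is a description. With genes in 5 classes of equal size by length, the shortest class ended at 1871 bases, and there 30.9% were called lower and 0.93% higher, with a median log2 fold change of -0.33. In the longest class, from 5208 bases, 22.7% were called higher and 3.97% lower, with a median of 0.24. Offsets for length and GC content fitted in each library brought the medians of the classes to between -0.077 and 0.025 and left 2480 called genes (15.9%), 5.95% of those tested higher and 9.92% lower. Of the 3929, 1866 passed again in the same direction. The parts of length and of GC content were not told apart, and counts over gene lists are also given with these offsets.

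**Figure D2:**
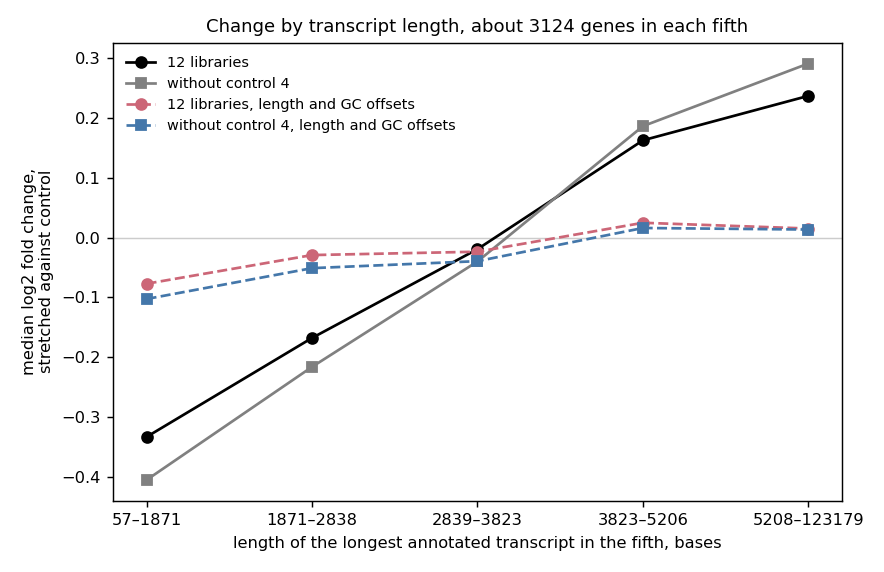
Median log2 fold change, stretched against control, in 5 equal classes of genes by the length of the longest annotated transcript. Without offsets the medians ran from -0.33 to 0.24 with 12 libraries; with length and GC offsets they lay between -0.077 and 0.025.

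Cellular iron handling changed in both directions. Cells take up iron bound to transferrin through the transferrin receptor (Tfrc), move it out of endosomes through the transporter Slc11a2, store it in ferritin (Fth1 and Ftl1) and release it through ferroportin (Slc40a1). When iron is scarce, iron regulatory proteins bind a short RNA hairpin, the iron-responsive element, which blocks translation when it lies in a 5′ UTR and protects the messenger RNA from decay when it lies in a 3′ UTR. Of 19 iron handling genes tested 4 rose and 5 fell, and 7 rose and 7 fell without control 4. With offsets 3 rose and 3 fell. The longest protein-coding GENCODE vM21 transcript of each gene was searched for the element, and other transcripts were not. The pattern was a bulged C, 5 paired bases (G-T pairs allowed) and the loop CAGTGN, N being A, C or T. It was chosen after the values were seen. Matches lay in 4 of these 19 genes and in 157 of 13863 genes searched (1.13%). A match is not a shown binding site. These elements belong to the genes whose values follow. Capitals mark the loop, and positions are on mm10.

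Tfrc, first of 4 in the 3′ UTR, chr16:32631219-32631248, plus strand: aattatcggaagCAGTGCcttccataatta
Tfrc, the second, chr16:32631598-32631627, plus strand: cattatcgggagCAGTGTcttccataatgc
Tfrc, the third, chr16:32631663-32631692, plus strand: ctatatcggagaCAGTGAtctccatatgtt
Tfrc, the fourth, chr16:32631710-32631739, plus strand: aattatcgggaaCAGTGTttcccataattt
Fth1, 5′ UTR, chr19:9982732-9982761, plus strand: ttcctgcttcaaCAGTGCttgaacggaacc
Ftl1, 5′ UTR, chr7:45459778-45459807, minus strand: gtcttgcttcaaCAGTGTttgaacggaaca
Slc40a1, 5′ UTR, chr1:45925464-45925493, minus strand: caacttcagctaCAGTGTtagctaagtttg

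Tfrc, the gene in which this search found elements in the 3′ UTR, rose most of the 19. Its level was 75.6 to 171 CPM (median 81.2) in controls and 164 to 267 CPM (median 205) in stretched libraries. The 171 CPM was control 4, and the other 5 controls, at 75.6 to 90.7 CPM, lay below all stretched libraries. The rise was 2.14-fold, or 1.10 ± 0.19 (SE) on the log2 scale (edgeR adjusted p = 0.00433), and 2.51-fold without control 4 (adjusted p = 7.85e-06). Slc11a2 rose 1.33-fold, from 60.7 to 71.7 CPM in controls to 78.8 to 94.9 CPM in stretched libraries (adjusted p = 0.0045). Its groups did not overlap even with control 4 included.

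Both ferritin genes fell. Fth1, the heavy chain, was at 1428 to 2826 CPM in controls (median 2161) and 1276 to 1636 CPM in stretched libraries (median 1526). Ftl1, the light chain, was at 607 to 939.8 CPM in controls (median 906) and 493 to 704 CPM in stretched libraries (median 557). Control 4 was the lowest control for both and the groups did not overlap without it. The log2 fold changes were -0.54 ± 0.13 for Fth1 (edgeR adjusted p = 0.0104) and -0.56 ± 0.11 for Ftl1 (adjusted p = 0.00532), and -0.65 for each without control 4. The fall of Ftl1 did not pass with length and GC offsets. Both genes have near-identical pseudogenes, and reads that mapped to more than 1 place were kept apart from the counts, so their levels are uncertain.

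The heme oxygenases, which free iron from heme, fell as well. Hmox1 was at 36.7 to 67.5 CPM in controls and 32.2 to 37.4 CPM in stretched libraries, with a log2 fold change of -0.69 ± 0.12 (edgeR adjusted p = 0.00411), and Hmox2 had -0.57 ± 0.11 (adjusted p = 0.00451). Aco1, the iron regulatory protein that also acts as an aconitase, rose by 0.36 on the log2 scale. The ferrireductase gene Steap2 had 0.55, and its call (adjusted p = 0.0287) was lost on leaving out any of 5 single libraries (adjusted p 0.0521 to 0.0642) and with offsets. Ireb2, the other iron regulatory protein, had 0.49 and did not pass with 12 libraries (adjusted p = 0.0986), and passed without control 4 (0.65, adjusted p = 0.0149). Slc40a1 had 0.44 (adjusted p = 0.217) and 0.69 without control 4 (adjusted p = 0.0151).

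**Figure D3:**
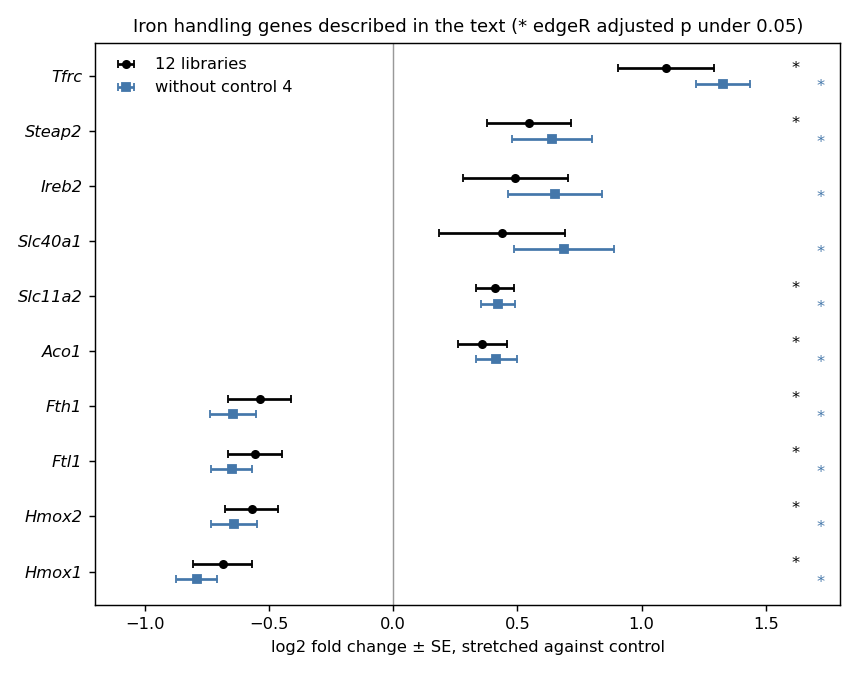
Log2 fold change ± SE of 10 of the 19 iron handling genes, those described in the text, stretched against control, with 12 libraries (circles) and without control 4 (squares); asterisks mark an adjusted p under 0.05. Tfrc had the highest value (1.10) and Hmox1 the lowest (-0.69) with 12 libraries.

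The 10 lowest log2 fold changes among genes of at least 20 CPM, outside the ribosomal, oxidative phosphorylation and mitochondrially encoded genes, ran from -2.72 to -2.01. Rnf187, a ubiquitin ligase gene at chr11:58932288-58938916 on mm10, was at 529 to 681 CPM in 5 controls, 104 CPM in control 4 and 47.2 to 111 CPM in stretched libraries. Its log2 fold change was -2.72 ± 0.38 (edgeR adjusted p = 0.00293), which is 6.58-fold, and -2.95 ± 0.21 without control 4. Prr7, a protein of the postsynaptic membrane, was at 16.0 to 62.2 CPM in controls and 2.09 to 10.7 CPM in stretched libraries (-2.69 ± 0.49, adjusted p = 0.00496). Here the groups did not overlap even with control 4, which stood at 20.8 CPM.

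Ybx1, which binds RNA and regulates its translation and stability, showed the same separation. It was at 119.6 to 534 CPM in controls, the lowest of which was control 4, and 33.7 to 75.9 CPM in stretched libraries (-2.25 ± 0.39, edgeR adjusted p = 0.00448). Ybx1 has processed pseudogenes, which makes its level uncertain. Igfbp2, a secreted binding protein of insulin-like growth factors, was at 151 to 179 CPM in 5 controls, 35.9 CPM in control 4 and 12.2 to 61.6 CPM in stretched libraries. The other 6 were Lamp1 (lysosomal membrane), Stk11 (the kinase LKB1, which sets neuronal polarity), Ctnnbip1 (an inhibitor of β-catenin), Inafm1, Cnih2 (an AMPA receptor partner) and Ccny (a membrane-bound cyclin). Their log2 fold changes were -2.22, -2.11, -2.05, -2.04, -2.03 and -2.02.

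The 10 genes held transcripts of 1307 to 5757 bases with a median GC content of 60.2%, against 49.3% over all genes tested. With length and GC offsets all 10 passed, at -2.35 to -1.55. With the replicate number in the model Stk11 and Inafm1 did not pass. Inafm1 and Cnih2 did not pass among the libraries of low Eif2s3y without control 4. In 8 of the 10 the groups overlapped, and in all 10 they did not overlap without control 4. These genes were picked for their fold changes, and the share of all tested genes without overlap was not counted. The 11.2% and 13.9% of all genes are shares of calls and do not measure overlap.

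The 10 highest log2 fold changes were smaller, from 0.93 to 1.25. Tram1, which helps new proteins cross the endoplasmic reticulum membrane, was at 21.2 to 50.7 CPM in controls (median 32.0) and 39.8 to 124 CPM in stretched libraries (median 76.1). Its log2 fold change was 1.25 ± 0.30 (edgeR adjusted p = 0.0119) and 1.42 ± 0.31 without control 4, which was the highest control. The call of Tram1 was lost when the replicate number was added to the model, with and without control 4. Adam10, a protease that sheds the outer part of membrane proteins, was at 45.4 to 65.0 CPM in 5 controls, 99.7 CPM in control 4 and 83.3 to 148 CPM in stretched libraries (0.95 ± 0.19, adjusted p = 0.00657). Tfrc, described above, was also among the 10.

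The others were Csrnp2 (1.17), Dpp8 (1.12, a peptidase), Asb1 (1.07), Castor2 (1.04, an arginine sensor homolog of the mTORC1 pathway), Prrc2a (0.98), Tmem164 (0.95) and Bag4 (0.93, a cochaperone). The calls of Csrnp2, Dpp8 and Prrc2a were lost on leaving out any of 8, 4 and 3 single libraries, none of them control 4, with adjusted p between 0.0501 and 0.0687. With the replicate number in the model Csrnp2, Dpp8, Asb1, Castor2 and Bag4 did not pass. These genes and Tram1 also did not pass among the libraries of low Eif2s3y without control 4. In 10 of the 10 the groups overlapped with 12 libraries, and in 9 of the 10 they did not overlap without control 4. Here too the genes were picked for their fold changes and no share over all genes was counted. Their transcripts had a median length of 5057 bases and a median GC content of 46.8%. With length and GC offsets 9 of the 10 passed, at 0.73 to 1.22.

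**Figure D4:**
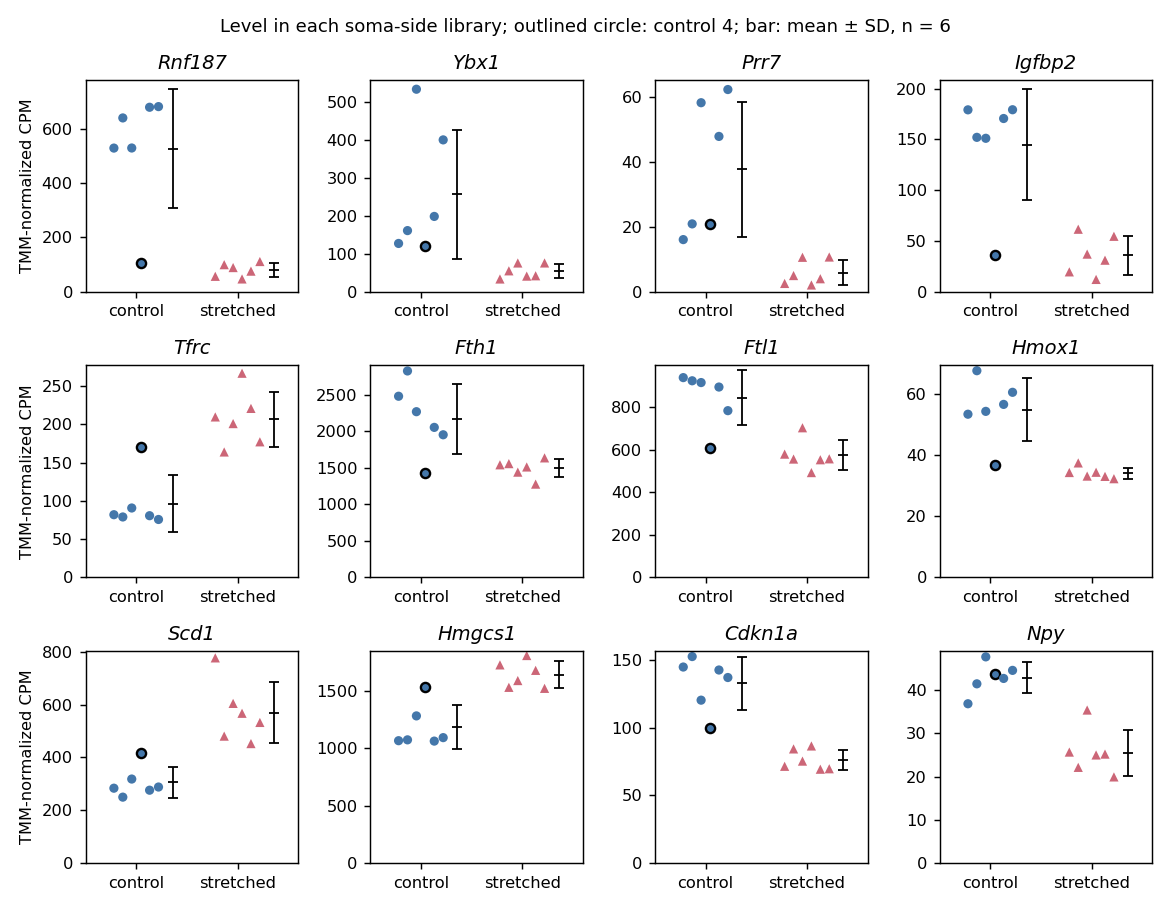
TMM-normalized CPM of 12 genes in each soma-side library (circles control, triangles stretched, control 4 outlined), with mean ± SD (n = 6). For Rnf187, Igfbp2, Tfrc and Hmgcs1 control 4 sat among the stretched libraries, while for Prr7, Ybx1, Scd1, Cdkn1a and Npy the groups did not overlap.

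Among lipid synthesis genes more were called higher than lower. Of 33 fatty acid and glycerolipid genes tested, 9 rose and 2 fell (13 and 4 without control 4, 7 and 1 with offsets), with a median log2 fold change of 0.22 against -0.03 over all genes. Scd1, the desaturase that makes oleate, was at 249 to 417 CPM in controls (median 285) and 452 to 777 CPM in stretched libraries (median 549.6). It rose 1.86-fold (0.90 ± 0.14, edgeR adjusted p = 0.00293), with groups that did not overlap even though control 4 was the highest control. Gpam, the mitochondrial enzyme that starts glycerolipid synthesis, rose from 72.1 to 132 CPM in controls to 135 to 229 CPM in stretched libraries (0.86 ± 0.17, adjusted p = 0.00616). Acly and Fasn, which make cytosolic acetyl-CoA and palmitate, each rose by 0.57. The call of Fasn was lost on leaving out any of 7 single libraries (adjusted p 0.0505 to 0.0640).

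In the sterol pathway 5 of 24 genes rose and 2 fell (6 and 3 without control 4, 3 and 1 with offsets), with a median of 0.05, so its members did not move together. Hmgcs1, which makes HMG-CoA, was at 1062 to 1533 CPM in controls and 1522 to 1808 CPM in stretched libraries (0.47 ± 0.10, edgeR adjusted p = 0.00608). Srebf2, the transcription factor of sterol genes, was at 309.6 to 392 CPM in 5 controls, 616 CPM in control 4 and 526 to 628 CPM in stretched libraries (0.52 ± 0.14, adjusted p = 0.0153).

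Msmo1 had 0.54 and Idi1 0.42, and on the same pathway Fdft1 had -0.33 and Mvd -0.29, the last at 0.0048 with offsets. Leaving out single libraries ended each of these calls, with adjusted p of 0.0508 for Msmo1 (without control 1), up to 0.0990 for Idi1 (any of 11, and 0.0921 with offsets), 0.0518 to 0.0698 for Fdft1 (any of 3) and 0.0535 to 0.1004 for Mvd (any of 10). Srebf1, the fatty acid counterpart of Srebf2, had 0.22 (adjusted p = 0.24).

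Cytoskeletal genes split by class. All called tubulins were lower: 13 of 14 tested fell and none rose, with a median of -0.47, and the counts did not move without control 4. With length and GC offsets 4 of the 14 fell and none rose. Tubb4b fell from 264 to 374 CPM in controls to 191 to 254 CPM in stretched libraries (-0.58 ± 0.10, edgeR adjusted p = 0.0033), and Tuba4a had -0.63 (adjusted p = 0.00432). Tuba1a, the main α-tubulin of growing neurons, was at 5453 to 7150 CPM in controls and 4650 to 6180 CPM in stretched libraries. It had -0.17 and did not pass (adjusted p = 0.18), and with the offsets its sign turned to 0.07.

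Of 7 neuronal intermediate filament genes 4 fell and none rose, with 12 libraries, without control 4 and with offsets. Nefm, the medium neurofilament subunit, was at 96.8 to 144 CPM in controls (median 126) and 63.1 to 95.0 CPM in stretched libraries (median 65.4; -0.75 ± 0.13, edgeR adjusted p = 0.00396). Ina, α-internexin, had -0.59. Nefl, the light subunit, did not pass: it was at 132 to 162 CPM in controls and 121 to 160 CPM in stretched libraries (adjusted p = 0.854). Among 35 microtubule-associated genes 7 rose and 7 fell (10 and 10 without control 4, 4 and 9 with offsets). Stmn3, a stathmin that destabilizes microtubules, had -0.64 ± 0.09 (adjusted p = 0.00293), and Mapt, which encodes tau, had -0.48 ± 0.08 (adjusted p = 0.00392).

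Of 36 actin and actin turnover genes 8 rose and 12 fell (8 and 15 without control 4, 7 and 6 with offsets). Actb, β-actin, was at 9038 to 10228 CPM in 5 controls, 6572 CPM in control 4 and 5846 to 7468 CPM in stretched libraries (-0.56 ± 0.10, edgeR adjusted p = 0.00433). Tmsb10, which binds actin monomers, had -0.55 and did not pass with offsets. Both have processed pseudogenes, and their levels are uncertain. In the membrane skeleton of spectrin and ankyrin, by contrast, 5 of 14 genes rose and 1 fell (10 and 2 without control 4, and 2 and 1 with offsets). Sptb, a β-spectrin, had 0.77 ± 0.16 (adjusted p = 0.00656).

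Motor genes showed no common direction. Of 39 kinesin genes 7 rose and 2 fell (9 and 6 without control 4, 4 and 4 with offsets), and the 2 with the smallest adjusted p, Kif21a (-0.58) and Kif3a (-0.37), were the 2 that fell. Of 28 dynein and dynactin genes 3 rose and 7 fell (8 and 8 without control 4, 1 and 3 with offsets). The light chain Dynll1 was at 604 to 866 CPM in controls and 491 to 573 CPM in stretched libraries (-0.53 ± 0.09, edgeR adjusted p = 0.00335).

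Among genes for neuronal surface recognition, those called were mostly higher. Clustered protocadherins give each neuron a combinatorial surface identity: 18 of 54 tested rose and none fell, and 31 rose and none fell without control 4 (9 and 2 with offsets). Pcdhga7 was at 10.3 to 17.1 CPM in controls and 17.9 to 23.2 CPM in stretched libraries (0.76 ± 0.14, edgeR adjusted p = 0.00432), and Pcdhga5 had 0.58. Genes of a cluster share exons at their 3′ end, so the counts of single members are uncertain and are not independent.

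Of 65 axon guidance ligands and receptors 19 rose and 2 fell (31 and 6 without control 4, 13 and 2 with offsets), with a median of 0.32. Sema4g, a membrane semaphorin, was at 21.8 to 41.8 CPM in controls and 42.1 to 55.5 CPM in stretched libraries (0.72 ± 0.15, edgeR adjusted p = 0.00622). The secreted semaphorin gene Sema3c had 0.74 ± 0.16 (adjusted p = 0.00817). In both the highest control was control 4.

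Among synaptic genes more were called higher than lower. Of 49 presynaptic genes 14 rose and 4 fell (18 and 7 without control 4, 10 and 6 with offsets). Of 36 postsynaptic scaffold genes 9 rose and 5 fell (12 and 7 without control 4, 8 and 6 with offsets). Syn3, a synapsin of synaptic vesicles, rose from 7.98 to 17.8 CPM in controls to 18.0 to 22.2 CPM in stretched libraries (0.75 ± 0.16, edgeR adjusted p = 0.00701). Rab3a, a small GTPase of the vesicle cycle, fell (-0.41, adjusted p = 0.00773) and did not pass with offsets. Nlgn3, a postsynaptic adhesion protein, was at 143 to 208 CPM in 5 controls, 287 CPM in control 4 and 270.4 to 366 CPM in stretched libraries (0.76 ± 0.15, adjusted p = 0.00496).

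Of 35 glutamate and GABA receptor genes 10 rose and 2 fell (14 and 3 without control 4), and with offsets 2 rose and 3 fell. Gria2, the AMPA receptor subunit that sets calcium permeability, was at 520.0 to 533 CPM in 5 controls, 729 CPM in control 4 and 657 to 804 CPM in stretched libraries. It had 0.39 ± 0.09 (edgeR adjusted p = 0.0104) and, with offsets, -0.0027 (adjusted p = 0.982). Gabrb2 had 0.50 ± 0.14 (adjusted p = 0.0165). Of 62 voltage-gated channel genes 9 rose and 4 fell (19 and 4 without control 4, 5 and 5 with offsets). Kcna6, a potassium channel subunit, was at 34.1 to 55.9 CPM in 5 controls and 85.7 to 106 CPM in stretched libraries, with control 4 at 89.2 CPM (0.82 ± 0.17, adjusted p = 0.00706). The sodium channel subunit gene Scn3b had 0.46.

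Among neuropeptide and granin genes 6 of 21 fell and none rose (8 and none without control 4). With offsets 2 of 21 fell, near the 9.92% of all genes. Npy was at 36.9 to 47.8 CPM in controls (median 43.3) and 19.9 to 35.4 CPM in stretched libraries (median 25.1). Its fall of 0.75 ± 0.13 on the log2 scale (edgeR adjusted p = 0.00356) was the same size without control 4 (-0.76), which at 43.8 CPM lay with the other controls. Sst had -0.63 ± 0.14 (adjusted p = 0.00807) and did not pass with offsets. Both peptides mark inhibitory neurons, yet Gad1, which makes GABA, had 0.50 ± 0.13 (adjusted p = 0.0154), and the vesicular GABA transporter gene Slc32a1 had 0.80 (adjusted p = 0.0138). In bulk samples fewer cells of a type and less RNA per cell cannot be told apart.

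**Figure D5:**
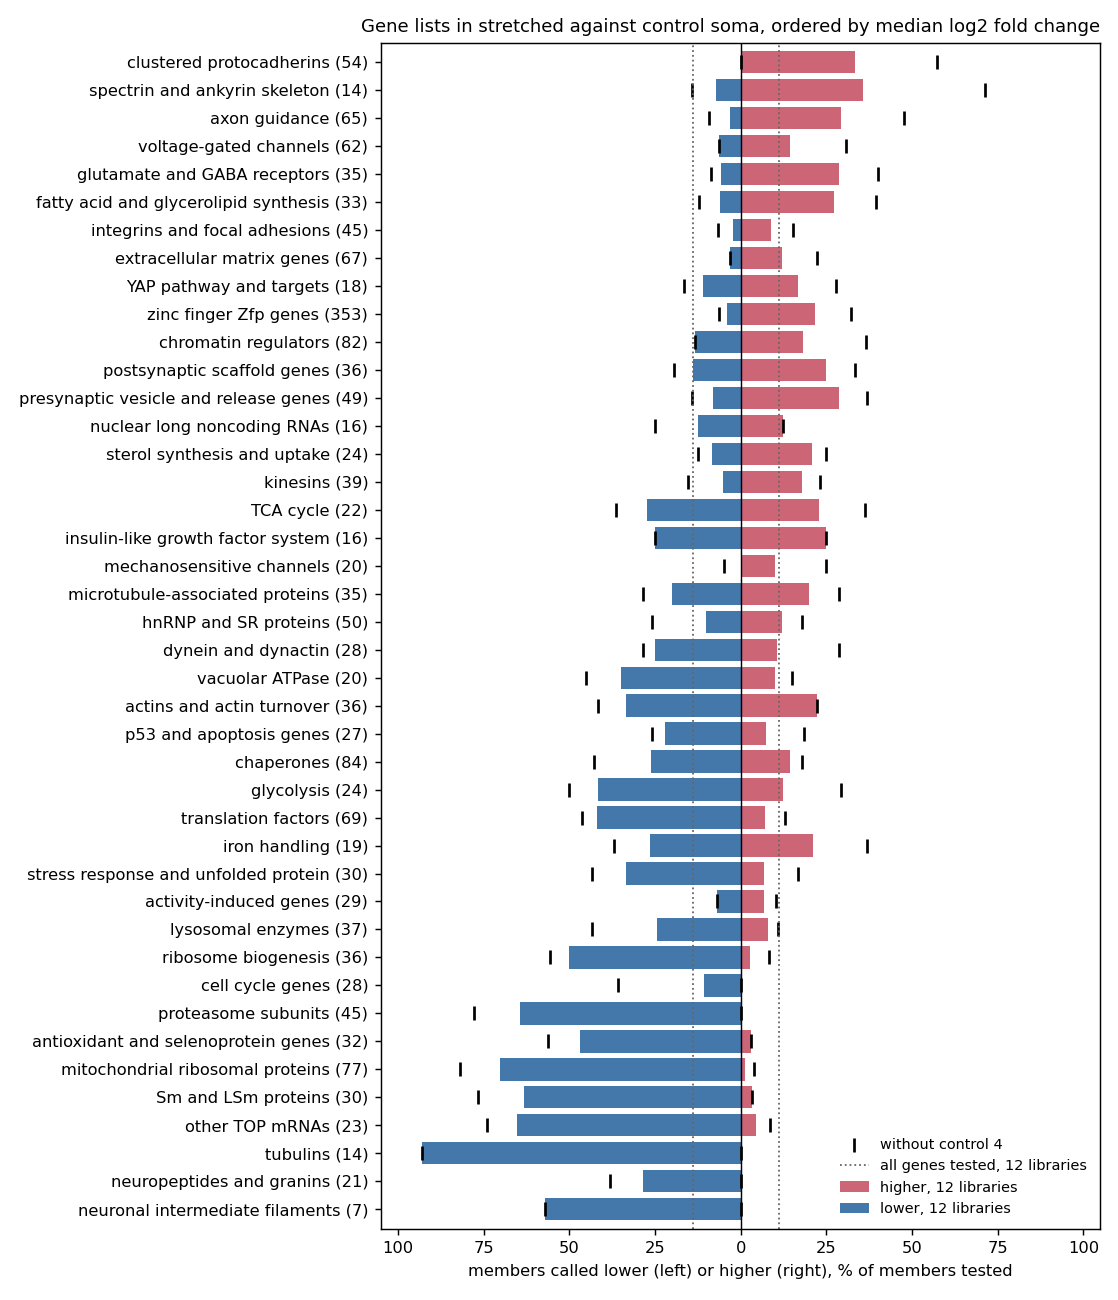
Share of tested members called higher (right) or lower (left) in 42 gene lists, with 12 libraries (bars) and without control 4 (ticks); numbers tested are in parentheses and dotted lines mark the 11.2% and 13.9% of all genes. The bars to the left are longest for tubulins (13 of 14), mitochondrial ribosomal proteins (54 of 77) and other TOP mRNAs (15 of 23).

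Beside the cytosolic ribosomal proteins (72 of 83 lower, none higher) and the nuclear oxidative phosphorylation genes (63 of 80 lower, 2 higher), called genes of other protein synthesis lists were mostly lower. Of 77 mitochondrial ribosomal protein genes 54 fell and 1 rose (63 and 3 without control 4, 28 and 4 with offsets). Mrpl12 was at 136 to 146 CPM in controls, control 4 included, and 92.2 to 122.9 CPM in stretched libraries (-0.47 ± 0.08, edgeR adjusted p = 0.00316), and it did not pass with offsets. Of 69 translation factor genes 29 fell and 5 rose (32 and 9 without control 4, 22 and 2 with offsets). Eif3g, an initiation factor subunit, fell from 142 to 204 CPM in controls to 100.6 to 129 CPM in stretched libraries (-0.68 ± 0.10, adjusted p = 0.00293).

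Of 23 other mRNAs with a 5′ terminal oligopyrimidine tract, whose translation follows mTOR activity, 15 fell and 1 rose (17 and 2 without control 4, 9 and none with offsets). Naca, which guards nascent chains at the ribosome, had -0.48 ± 0.08 (edgeR adjusted p = 0.00356), and Eif3h had -0.57. Ribosome biogenesis genes fell in 18 of 36 and rose in 1 (20 and 3 without control 4, 8 and none with offsets), with Utp3 at -0.55 and the polymerase subunit gene Polr1c at -0.61. Sm and LSm genes of splicing and mRNA decay fell in 19 of 30 and rose in 1 (23 and 1 without control 4, 15 and none with offsets). Lsm2 was at 37.6 to 46.7 CPM in 5 controls, 25.2 CPM in control 4 and 20.2 to 25.5 CPM in stretched libraries (-0.87 ± 0.14, adjusted p = 0.00293). The larger hnRNP and SR proteins did not share this: 6 of 50 rose and 5 fell (9 and 13 without control 4, 2 and 5 with offsets), with Hnrnpab (-1.93) and Ybx1 the 2 of smallest adjusted p.

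Called proteasome genes were lower, while chaperone genes changed in both directions. Of 45 proteasome genes 29 fell and none rose (35 without control 4; with offsets 12 fell and 1 rose). Psmb4, a subunit of the core particle, fell from 159.9 to 239.7 CPM in controls to 122 to 152 CPM in stretched libraries (-0.64 ± 0.10, edgeR adjusted p = 0.00293), and the activator subunit gene Psme1 had -0.68. Of 84 chaperone genes 22 fell and 12 rose (36 and 15 without control 4, 21 and 7 with offsets). Hsp90aa1 fell from 448 to 725 CPM to 349.8 to 411 CPM (-0.60 ± 0.10, adjusted p = 0.00356), while Dnajc16 rose from 20.8 to 34.2 CPM to 36.3 to 39.7 CPM (0.63 ± 0.12, adjusted p = 0.00452). Of 30 genes of the integrated stress and unfolded protein responses 10 fell and 2 rose (13 and 5 without control 4, 5 and none with offsets). Slc3a2, an amino acid transporter subunit, had -0.51 (adjusted p = 0.00566), and the endoplasmic reticulum chaperone gene Canx had 0.27 (adjusted p = 0.0158; 0.499 with offsets).

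Among regulators of transcription, 77 of 353 Zfp zinc finger genes rose and 14 fell (114 and 22 without control 4, 27 and 15 with offsets). Zfp317 was at 30.3 to 49.2 CPM in controls and 51.0 to 58.4 CPM in stretched libraries (0.59 ± 0.12, edgeR adjusted p = 0.00563), and Zfp37 had 0.52. Of 82 chromatin regulators 15 rose and 11 fell. Without control 4 these were 30 and 11, and with offsets 7 and 15, so the balance depended on the setting. Smarca4, the ATPase of the BAF remodelling complex, had -0.41 ± 0.08 (adjusted p = 0.00575), and the BAF subunit gene Arid2 had 0.48, which did not pass with offsets. Of 16 nuclear long noncoding RNAs 2 rose and 2 fell (2 and 4 without control 4, 1 and 5 with offsets), among them Rian (0.42, and -0.0282 with offsets) and Pvt1 (-0.48). Malat1, singled out after its values were seen, was at 854.5 to 1660 CPM in controls and 309 to 877 CPM in stretched libraries (-0.96 ± 0.26, adjusted p = 0.0188).

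Of 24 glycolysis gene IDs 10 fell and 3 rose (12 and 7 without control 4, 3 and 4 with offsets). Gapdh was at 741 to 1045 CPM in controls and 462 to 695 CPM in stretched libraries (-0.71 ± 0.11, edgeR adjusted p = 0.00293), and Eno1 had -0.51 ± 0.08 (adjusted p = 0.00293). Both have near-identical copies, so their levels are uncertain. The tricarboxylic acid cycle was divided, with 5 of 22 genes higher and 6 lower (8 and 8 without control 4, 4 and 4 with offsets). Cs, citrate synthase, rose from 267 to 334 CPM to 352 to 391 CPM (0.34 ± 0.07, adjusted p = 0.00697), whereas Pdhb, a pyruvate dehydrogenase subunit, had -0.35 ± 0.08 (adjusted p = 0.0106).

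Antioxidant and selenoprotein genes fell in 15 of 32 and rose in 1 (18 and 1 without control 4, 9 and none with offsets), with the peroxiredoxins Prdx2 at -0.50 and Prdx5 at -0.51. The vacuolar ATPase, which acidifies lysosomes, had 7 of 20 subunit genes lower and 2 higher (9 and 3 without control 4, 5 and 1 with offsets). Of 37 lysosomal genes 9 fell and 3 rose (16 and 4 without control 4, 7 and 1 with offsets), among them Lamp1, described above. Npc1, which exports cholesterol from lysosomes, rose by 0.51 on the log2 scale (edgeR adjusted p = 0.00994) and did not pass with offsets.

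Genes of the insulin-like growth factor system changed in 8 of 16, 4 in each direction, and these counts were the same without control 4 and with offsets. Igfbp2 fell, as above, and Igfbp3, another binding protein, rose from 29.3 to 64.9 CPM in controls to 69.5 to 92.9 CPM in stretched libraries (0.84 ± 0.17, edgeR adjusted p = 0.0065). Igfbp7 and Igf1r were singled out after their values were seen. Igfbp7 had the lowest value of the list, -3.01 ± 0.53 (adjusted p = 0.00432), at a level of 2.04 to 16.0 CPM in controls and 0.481 to 1.38 CPM in stretched libraries. The receptor gene Igf1r had 0.62 ± 0.16 (adjusted p = 0.0134).

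Among 27 p53 and apoptosis genes 6 fell and 2 rose (7 and 5 without control 4, 6 and 2 with offsets). Cdkn1a, the cyclin-dependent kinase inhibitor p21, was at 99.5 to 153 CPM in controls (median 139.9) and 69.3 to 86.5 CPM in stretched libraries (median 73.4). It fell 1.75-fold, with a log2 fold change of -0.80 ± 0.11 (edgeR adjusted p = 0.0029), and control 4 was the lowest control, above every stretched library. Bbc3, the pro-apoptotic protein PUMA, was at 13.3 to 47.8 CPM in controls and 5.90 to 10.4 CPM in stretched libraries (-1.60 ± 0.31, adjusted p = 0.00532). Trp53 itself, added after its value was seen, had -0.43 (adjusted p = 0.0103). Of 28 cell cycle genes 3 fell and none rose (10 and none without control 4, 4 and none with offsets).

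With 12 libraries genes tied to mechanical sensing changed at about the background share of 25.1% or below it. With offsets the called share was above the 15.9% of all genes for channels and for the YAP list. Without control 4 the YAP list was also above the 38.3% of all genes. Of 20 mechanosensitive channel genes 2 rose and none fell (5 and 1 without control 4, 2 and 2 with offsets). These were Tmc7 (0.79 ± 0.21, edgeR adjusted p = 0.0163) and Trpm4 (0.72 ± 0.20, adjusted p = 0.0198), both low and both named because they were the 2 that passed. The call of Trpm4 was lost without stretched library 1 (adjusted p = 0.0548). Piezo1, a channel opened by membrane tension, was at 3.46 to 6.27 CPM in controls and 5.99 to 7.66 CPM in stretched libraries. It had 0.41 ± 0.17 and did not pass with 12 libraries (adjusted p = 0.0921), and passed without control 4 (0.47, adjusted p = 0.0423). Piezo2 was at 0.225 to 1.02 CPM in all 12 libraries, with -0.08 (adjusted p = 0.907).

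Of 45 integrin and focal adhesion genes 4 rose and 1 fell (7 and 3 without control 4, 4 and 1 with offsets). Among the libraries of high Eif2s3y 11 rose and 1 fell, and among those of low Eif2s3y, less control 4, 2 rose and 6 fell. Itgb1, the β1 integrin, was at 64.2 to 92.7 CPM in 5 controls, 133 CPM in control 4 and 102 to 171 CPM in stretched libraries (0.60 ± 0.17, edgeR adjusted p = 0.0191). Ptk2, focal adhesion kinase, had 0.37 and did not pass with offsets. The calls of Itgb1 and Ptk2 were lost with the replicate number in the model. They were also lost among the libraries of low Eif2s3y without control 4. Of 18 genes of the YAP pathway and its targets 3 rose and 2 fell (5 and 3 without control 4, 2 and 3 with offsets). Wwtr1, which encodes the cofactor TAZ, fell from 21.4 to 41.8 CPM in controls to 13.6 to 19.7 CPM in stretched libraries (-0.81 ± 0.17, adjusted p = 0.00704), with no overlap, and Vgll4, which competes with YAP and TAZ for TEAD factors, had -0.59. Yap1 had 0.17 (adjusted p = 0.588; -0.0784 with offsets) and the target gene Ccn1 0.20 (adjusted p = 0.411), and neither passed.

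Of 67 extracellular matrix genes 8 rose and 2 fell (15 and 2 without control 4, 3 and 2 with offsets). Agrn, the heparan sulfate proteoglycan agrin, rose from 58.7 to 119.9 CPM in controls to 126 to 162 CPM in stretched libraries (0.67 ± 0.16, edgeR adjusted p = 0.01). Ncan, the chondroitin sulfate proteoglycan neurocan, had 0.61 ± 0.13 (adjusted p = 0.00774), and its groups overlapped with and without control 4.

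Activity-induced genes did not move together with 12 libraries: 2 of 29 rose and 2 fell (3 and 2 without control 4, 2 and 1 with offsets). With the replicate number in the model 3 rose and 6 fell. Among the libraries of high Eif2s3y 4 rose and 2 fell, with a median of 0.02. Among those of low Eif2s3y, less control 4, these were 4 and 9, with a median of -0.44. Fosl2 rose from 25.4 to 49.9 CPM in 5 controls, with control 4 at 75.4 CPM, to 57.6 to 95.1 CPM in stretched libraries (0.88 ± 0.24, edgeR adjusted p = 0.0188), and Egr3 had 0.59. Ier5, named after its values were seen, fell from 5.47 to 18.1 CPM to 2.18 to 4.34 CPM (-1.94 ± 0.28, adjusted p = 0.00293). Fos was at 50.3 to 165 CPM in controls and 32.8 to 81.7 CPM in stretched libraries, with -0.87 ± 0.33 (adjusted p = 0.0664). It passed on leaving out control 1, control 3 or stretched 5 (adjusted p 0.0444 to 0.0481). Arc (-0.52), Npas4 (-0.74) and Bdnf (-0.39) did not pass, with adjusted p of 0.599, 0.487 and 0.271. Arc ran from 5.70 to 7.43 CPM in the libraries of high Eif2s3y and from 24.2 to 60.9 CPM in those of low Eif2s3y.

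Markers of other cells were present in both groups. None of 14 astrocyte markers tested passed with 12 libraries (1 rose and 3 fell without control 4, none with offsets), and the list held 0.561 to 1.52% of counts in controls and 0.582 to 1.23% in stretched libraries. Among the libraries of high Eif2s3y 3 astrocyte markers rose and 2 fell. Among those of low Eif2s3y, less control 4, 2 rose and 5 fell. Of 14 microglial markers 3 fell (4 without control 4, 3 with offsets), C1qa (-1.35), C1qb (-0.80) and Tyrobp (-0.80, not passing with offsets), and this list held 0.00946 to 0.0182% of counts in controls, where control 4 was lowest, and 0.00773 to 0.0101% in stretched libraries. C1qb was at 15.7 to 30.1 CPM in controls and 10.2 to 13.5 CPM in stretched libraries (edgeR adjusted p = 0.00616). Of the markers of other types, 1 of 8 oligodendrocyte lineage, 1 of 10 endothelial and mural and 1 of 8 fibroblast markers passed (3 of each of the first 2 lists and 1 of the last without control 4; 1, none and 1 with offsets). The last was Dcn, decorin, which fell by 0.83 on the log2 scale (adjusted p = 0.0191), while the mural gene Rgs5 rose by 0.38 (adjusted p = 0.0345). The call of Dcn was lost without control 5 (adjusted p = 0.0541), and that of Rgs5 without any of 6 single libraries (0.0664 to 0.0791) and with offsets. Sox10, which defines the oligodendrocyte lineage, had 0 counts in all 12 libraries, and Opalin had 3 counts or fewer in each. Col1a1 had 0.26 (adjusted p = 0.275).

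Of 12 pan-neuronal markers 2 rose and 6 fell (3 and 6 without control 4, none and 4 with offsets), Uchl1 at -0.63 among them, and the list held 0.740 to 0.881% of counts in controls and 0.698 to 0.759% in stretched libraries, with control 4 the lowest control. Excitatory markers fell in 2 of 11 and rose in none (3 and 2 without control 4, 2 and none with offsets), and their share was 0.167 to 0.204% in controls and 0.174 to 0.211% in stretched libraries. Inhibitory markers rose in 3 of 12 and fell in 2 (3 and 2 without control 4, 2 and 1 with offsets), with shares of 0.107 to 0.126% and 0.105 to 0.131%. The part of cell makeup in the changes above was not tested.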

How the data were processed

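The 6 control and 6 stretched soma-side libraries were sequenced from poly(A) RNA with a low-input kit and unique molecular identifiers, per the labels' protocols. For each library the authors deposited 1 file of raw counts, with a line for every Ensembl gene ID. The submitters' processing notes name FastQC 0.11.9, MultiQC 1.12, fastp 0.20.1, STAR 2.7.08a, HTSeq 0.13.5 and mm10; strand setting, annotation and use of the identifiers are not given in the sources used here. Rows of uncounted reads were left out of totals and tests; they held 3.81% (no feature), 5.05% (ambiguous) and 6.83% (not unique) of reads on average in controls and 4.67%, 4.69% and 5.97% in stretched libraries, of all lines summed. Of 55487 IDs, 55141 had a symbol.

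Stretched and control libraries were compared with edgeR 4.0.16 (R 4.3.3): TMM scaling, filterByExpr, robust quasi-likelihood fit without a replicate block, Benjamini-Hochberg adjustment over all genes tested, threshold 0.05. Every adjusted p in the text is from edgeR. CPM are TMM-normalized. Length and GC offsets are smooth curves per library (mgcv 1.9.3) over the longest GENCODE vM21 transcript. DESeq2 1.42.0 and limma 3.58.1 served as alternatives. The test was checked on simulated counts.

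The comparison, the 50 gene lists and the alternatives were chosen with earlier results of these data known. Named genes are the 10 highest and 10 lowest log2 fold changes among called genes of at least 20 CPM outside the ribosomal, oxidative phosphorylation and mitochondrially encoded genes, up to 2 called members of smallest adjusted p and at least 10 CPM per list, and a fixed set, of which the text names some. Chosen after their values were seen were Slc40a1, Slc11a2, Steap2, Aco1, Hmox2, Ireb2, Fasn, Acly, Msmo1, Idi1, Fdft1, Mvd, Trpm4, Tmc7, Ier5, Igf1r, Igfbp7, Slc32a1, C1qa, Tyrobp, Trp53 and Malat1. Some genes that met these rules are not reported here.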

Additional observations from a re-analysis of the deposited data

Results flagged for a closer look

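In groups of 6 libraries, a value was set apart when its gap to the nearest other library, divided by the group's range, exceeded Dixon's critical value. Of 266 groups checked 32 held such a library, where chance alone would give about 5%, and in 23 of the 32 it was control library 4.

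Control 4 stood alone among the controls on the first principal component, at 19.21. It was the lowest control by such a gap for Rnf187 (104.3 CPM), Inafm1 (14.03 CPM), Igfbp2 (35.91 CPM), Mapt (1543 CPM), Tmsb10 (1058 CPM), Actb (6571 CPM), Kif21a (75.21 CPM), Dynll1 (604.1 CPM), Naca (252.8 CPM) and Eno1 (1259 CPM). It was the highest control for Tfrc (171 CPM), Prrc2a (279.5 CPM), Adam10 (99.72 CPM), Slc40a1 (37.65 CPM), Srebf2 (615.5 CPM), Gria2 (728.6 CPM), Gabrb2 (126.2 CPM), Pcdhga7 (17.13 CPM), Gad1 (169.3 CPM), Dnajc16 (34.17 CPM), Npc1 (39.94 CPM) and Tmc7 (11.74 CPM). For each of these 22 genes control 4 lay on the side of the stretched libraries. The genes were in part picked for their difference between the groups, and share their libraries, so these flags are not independent of one another.

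Among stretched libraries, number 4 stood highest for Cnih2 (78.84 CPM), Hnrnpab (10.03 CPM), Mapt (1610 CPM), Actb (7468 CPM), Npy (35.43 CPM) and Mrpl12 (122.9 CPM), all genes that fell with stretch. Stretched 6 was lowest for Dynll1 (490.6 CPM) and highest for Piezo2 (1.025 CPM), and stretched 5 was lowest for C1qb (10.2 CPM).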

How the results depend on the processing

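The count of called genes (3929, with 1757 higher and 2172 lower) stayed within 1.5 times under RLE scaling, total counts, both other filters and DESeq2 (4846). It moved to 2480 with length and GC offsets (930 higher) and to 316 with a change of at least 1 on the log2 scale required (45 and 271). Only the higher count moved with limma voom (2697) and without both libraries numbered 4 (2782). In the 6 libraries with low Eif2s3y, which hold control 4, edgeR called 0 genes, 0 higher and 0 lower. Leaving out 1 library gave 2666 (without control 1) to 6072 (without control 4) called genes, 1057 to 2889 higher and 1441 (without control 5) to 3183 lower. The replicate block gave 3209 called genes, 2031 with offsets added (893 and 1138), and 5986 without control 4 (2833 higher), the last setting chosen after seeing the data. For the 5 shared replicate numbers the correlation of deviations ran from 0.0029 to 0.396. Its mean was 0.226, against -0.0361 for pairs of different number. Whether the numbers pair the libraries was not settled, and the main fit held no replicate block. Of 115 named called genes, all 115 passed with DESeq2, voom, the Eif2s3y split as covariate and without control 4, 14 did not pass with the replicate block (among them Tram1, also less control 4), and 98 passed with offsets.

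Signs turned for these genes, and the cause was not tested. With offsets, with the replicate block added and without control 4 the log2 fold changes were 0.0699, 0.0069 and 0.0723 for Tuba1a, -0.0027, -0.0404 and -0.0251 for Gria2, -0.0784, -0.1722 and -0.1825 for Yap1, and -0.0282, -0.0414 and -0.0950 for Rian. Mvd had 0.0048 and 0.0730 in the first 2 of these. Yap1 was also negative in the low Eif2s3y libraries (-0.1031, and -0.2272 less control 4), and Arc was 0.0170 in the high ones. Piezo2 ran from -0.4551 to 0.1096 on leaving out 1 library, with 0.0666 without both libraries numbered 4 and 0.0753 with the replicate block less control 4. Nefl ran from -0.0111 to 0.0895. Genes at 3 counts or fewer, such as Opalin, cannot be compared at this depth.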
